A study of Mus musculus with 8 samples.

Results

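The 57 genes described here code for proteins of the contractile apparatus: myosins and their light chains, actins and the proteins that cap and anchor them, troponins and tropomyosins, and the proteins that store and release calcium in muscle. They were taken by name from a table of 22000 genes measured by RNA sequencing in mouse cortex, and all 57 had a row. The choice was made with earlier results of these data known. Muscle genes already known to be lower in one genotype (Tcap, Mylk3 and Tnnc1 among them) were kept out, so the counts of genes that passed a genotype test below come from a set that was not chosen blind to it. Cortex, taken whole, came from 4 Mef2c heterozygotes and 4 wild type mice, going by their labels, each group with 2 males and 2 females, 1 library per mouse. Mef2c codes for a transcription factor of muscle, neurons and immune cells. Strain, age, the altered part of Mef2c and the cells in which it is altered were not given here by any label.

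In striated muscle, myosin heavy chains form the thick filament and pull on thin filaments of actin, which are anchored by alpha-actinin at the Z-disc. Calcium released through ryanodine receptors binds troponin C, tropomyosin shifts on the thin filament, and the SERCA pumps return the calcium to the store. Smooth muscle and non-muscle cells use related isoforms, driven by phosphorylation of the regulatory myosin light chain. Neurons hold non-muscle myosin, tropomyosins, tropomodulins and ryanodine receptors, and alpha-actinin is a component of the postsynaptic density. MEF2 factors were first described as activators of muscle genes, through an A/T-rich element in their promoters, and many contractile genes also carry a CArG box, the element bound by serum response factor.

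Total counts lay between 16092773 and 17841377 reads per library, and CPM below are these counts scaled to library size. The contractile genes together took between 0.326% and 0.358% of them. Mef2c, the targeted gene, was higher in the libraries labelled heterozygous, against the label. Its mean was 1304 ± 73.2 CPM there against 995 ± 41.3 CPM in the wild type libraries (SD, n = 4), and the groups did not overlap (log2 fold change 0.39 ± 0.05 (SE), adjusted p 0.000154 in edgeR's quasi-likelihood test). Directions below therefore refer to the libraries as labelled. Reads summed over Mef2c do not tell its alleles apart. Of 11 muscle regulator and natriuretic peptide genes with a row (Myog, Nkx2-5 and Gata4 among them), 9 had 0 reads in all 8 libraries. The peptide gene Nppa held 18 reads over all libraries and the regulator Myod1 3. The list's summed level lay between 0 and 0.336 CPM in heterozygous and between 0 and 0.458 CPM in wild type libraries. The animals' numbers fall into a lower and a higher run (the first and second run below), with 2 mice of each genotype in each, and the labels do not say what these runs are. Heterozygous replicate 4, labelled female, held 72 reads of 4 Y-linked genes, against 0 to 3 in the other females and 2150 to 2564 in the males.

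Short stretches of promoter are printed here because the MEF2 and CArG elements are what a regulatory reading of these genes turns on. The windows are the 250 bases before the gene start in RefSeq on GRCm38.p6, the assembly that mm10 stands for, written 5′ to 3′ along the gene. The windows of Casq2, Mybpc3 and Ttn each hold 1 match to the MEF2 consensus, in capitals, and the window of Myl4, the contractile gene with the smallest p for genotype, holds none of either motif.
Casq2, chr3:102086165-102086414, plus strand: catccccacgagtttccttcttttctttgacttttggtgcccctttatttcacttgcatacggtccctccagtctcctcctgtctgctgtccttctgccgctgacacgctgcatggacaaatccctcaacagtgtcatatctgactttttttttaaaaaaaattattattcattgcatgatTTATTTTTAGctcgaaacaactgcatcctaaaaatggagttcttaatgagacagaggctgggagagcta
Mybpc3, chr2:91117894-91118143, plus strand: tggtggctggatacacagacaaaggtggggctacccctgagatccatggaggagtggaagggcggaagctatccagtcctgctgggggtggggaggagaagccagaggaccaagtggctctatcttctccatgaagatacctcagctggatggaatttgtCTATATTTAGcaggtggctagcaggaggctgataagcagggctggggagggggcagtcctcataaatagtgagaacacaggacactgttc
Ttn, chr2:76982548-76982797, minus strand: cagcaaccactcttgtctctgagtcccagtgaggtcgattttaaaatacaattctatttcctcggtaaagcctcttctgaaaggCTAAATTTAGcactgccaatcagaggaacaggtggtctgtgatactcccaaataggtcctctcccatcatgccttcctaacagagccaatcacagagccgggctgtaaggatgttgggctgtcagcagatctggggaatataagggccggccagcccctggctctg
Myl4, chr11:104550413-104550662, plus strand: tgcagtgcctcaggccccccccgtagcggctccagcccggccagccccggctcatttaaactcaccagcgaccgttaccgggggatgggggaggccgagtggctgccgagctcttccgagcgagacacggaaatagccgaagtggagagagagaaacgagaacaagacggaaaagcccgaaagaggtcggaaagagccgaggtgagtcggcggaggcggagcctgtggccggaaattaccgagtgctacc

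The CArG box (capitals) is shown with 10 bases on either side for a smooth muscle light chain gene that was detected in cortex, a Z-disc gene that was detected, and a pair of cardiac genes with no read in any library.
Myl9, chr2:156775293-156775322, plus strand: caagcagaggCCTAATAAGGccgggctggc
Ldb3, chr14:34588697-34588726, minus strand: gggttacagtCCATTTATGGgcgcagcaag
Actc1, chr2:114052903-114052932, minus strand: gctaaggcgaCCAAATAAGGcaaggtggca
Myl7, chr11:5898824-5898853, minus strand: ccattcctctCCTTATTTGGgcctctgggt

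Both motifs read the same on either strand, and no window held a pair of them that overlapped. Of the contractile genes, 49 had a window (some had several). The MEF2 consensus was found for 4 of the 49 (8.16%; Casq2, Mybpc3, Ttn and Myoz2) and for 923 of all 27025 genes with a window (3.42%). The CArG box was found for 9 of the 49 (18.4%) and for 439 of the 27025 (1.62%). The CArG box was found for 6 of 37 detected and 3 of 12 undetected contractile genes with a window, and the MEF2 consensus for 3 of 37 and 1 of 12. A match is a description of letters and not a bound site, and a window without one says only that the letters are not in it.

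Cortex held reads of most contractile genes, but the sarcomere was covered unevenly. A gene counted as detected with 10 or more reads in 4 or more of the 8 libraries: 43 of the 57 genes (75.4%) met this, against 63.3% of all rows of the table. All 8 genes known mainly from smooth muscle or from muscle of both kinds (Des and Pdlim3 among them) and all 14 widely expressed genes were detected, and 21 of the 35 genes known mainly from striated muscle. The 14 undetected genes were thus all of the last kind: Myl1, Myl2, Myl3, Myl7, Mylk2, Actc1, Myoz2, Tnni3, Tnnc2, Atp2a1, Casq1, Ckm, Ckmt2 and Xirp1. Of these, Myl2, Myl3, Tnnc2 and Atp2a1 overlap a gene with its own row on the other strand, and Tnni3 and Xirp1 on the same strand. The part of these overlaps in the low counts was not tested. With 1 library left out, between 41 and 43 genes were detected.

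Of the undetected genes, Myl7 (the atrial regulatory light chain), Mylk2 (the skeletal muscle light chain kinase), Actc1 (cardiac actin) and Ckmt2 (the mitochondrial creatine kinase of sarcomeres) had no read in any library. Over all libraries, a count of 0 allows a level of up to 0.0220 CPM, for counting error only. Of all rows, 20.9% held no read, among them the 13 rows of mitochondrially encoded genes, and whether the 4 rows were left empty by the counting was not tested. Myl2, the ventricular regulatory light chain, had between 1 and 6 reads per library, Tnni3, cardiac troponin I, between 0 and 4, and Ckm, the muscle creatine kinase, between 0 and 5.

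The threshold fell within a run of low values. Just above it, Actn3, the alpha-actinin of fast muscle fibres, had 7, 12, 6 and 5 reads in the heterozygous libraries (replicates 1 to 4, in that order throughout) against 3, 21, 19 and 10 in the wild type ones, and Ttn, the giant spring protein of the sarcomere, had 17, 8, 7 and 18 and 3, 5, 12 and 10. Myh6, the fast cardiac myosin heavy chain, had 14, 14, 9 and 18 reads against 15, 16, 10 and 6, and Des, the intermediate filament protein of muscle, 10, 22, 13 and 9 against 19, 13, 20 and 16. Just below it, Atp2a1, the calcium pump of fast muscle, had 6, 10, 11 and 8 against 6, 4, 6 and 3 reads, and Myl1, the light chain of fast fibres, 8, 3, 0 and 4 against 3, 10, 7 and 13. Casq1, the calcium store protein of skeletal muscle, had 3, 8, 2 and 3 against 13, 5, 3 and 4 reads, and Tnni3 3, 4, 0 and 2 against 0, 4, 4 and 4. Genes on either side of the threshold are therefore not sharply apart, as the plot of reads around the threshold shows.

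**Figure D1:**
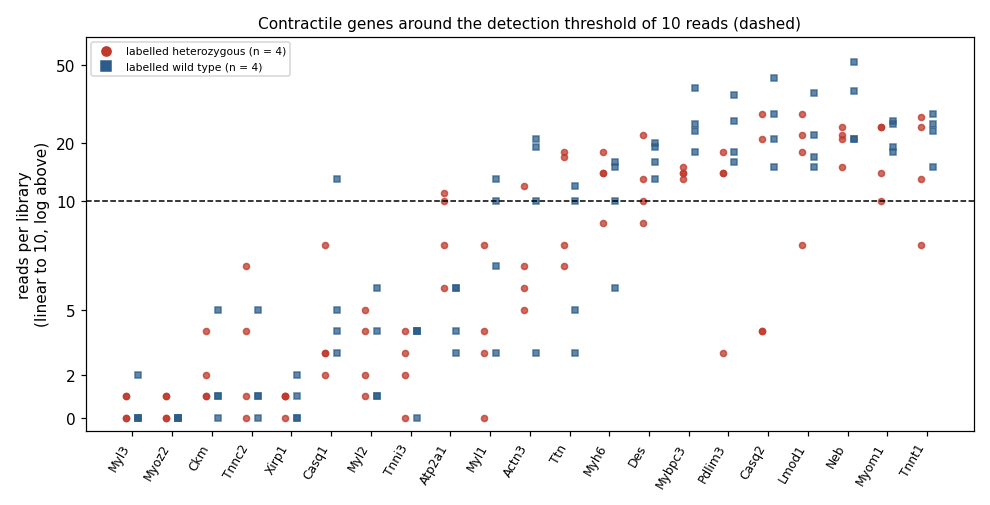
Reads per library (vertical axis, linear up to 10 and log above) for contractile genes around the detection threshold of 10 reads (dashed line). Genes run from left to right by the count that at least 4 libraries reached, lowest first. Red circles are the 4 libraries labelled heterozygous and blue squares the 4 labelled wild type. Actn3 and Ttn reach 10 reads in exactly 4 libraries, whereas Myl1 and Atp2a1 reach it in 2.

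Levels of different genes can be compared only per length, here as CPM per kilobase of merged exons. The genes with the highest values were those with roles outside muscle. Atp2a2, the SERCA pump of heart, slow muscle and most other cells, had 180.3 ± 5.89 (SD, n = 8 libraries), above 98.9% of the tested genes with a length. Myl6, the essential light chain of non-muscle and smooth muscle myosin, had 59.1 ± 3.39, and Tmod2, the tropomodulin of neurons, 42.6 ± 2.102. Tpm1 had 35.3 ± 1.01, Actn4 31.6 ± 1.98, Myh10 27.5 ± 1.33, Tpm3 23.7 ± 1.09 and Actn1 19.6 ± 1.26. Per length of the longest transcript, the values of Tpm1, Tpm3 and Actn4 were 79.2, 60.8 and 49.9, over 1.5 times higher, and Tpm1 then lay above Myl6 (62.0). For comparison, the median of the tested genes was 5.74. Ttn, with merged exons of 116825 bases, had the lowest value of the detected genes, 0.0050 ± 0.0026.

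**Figure D2:**
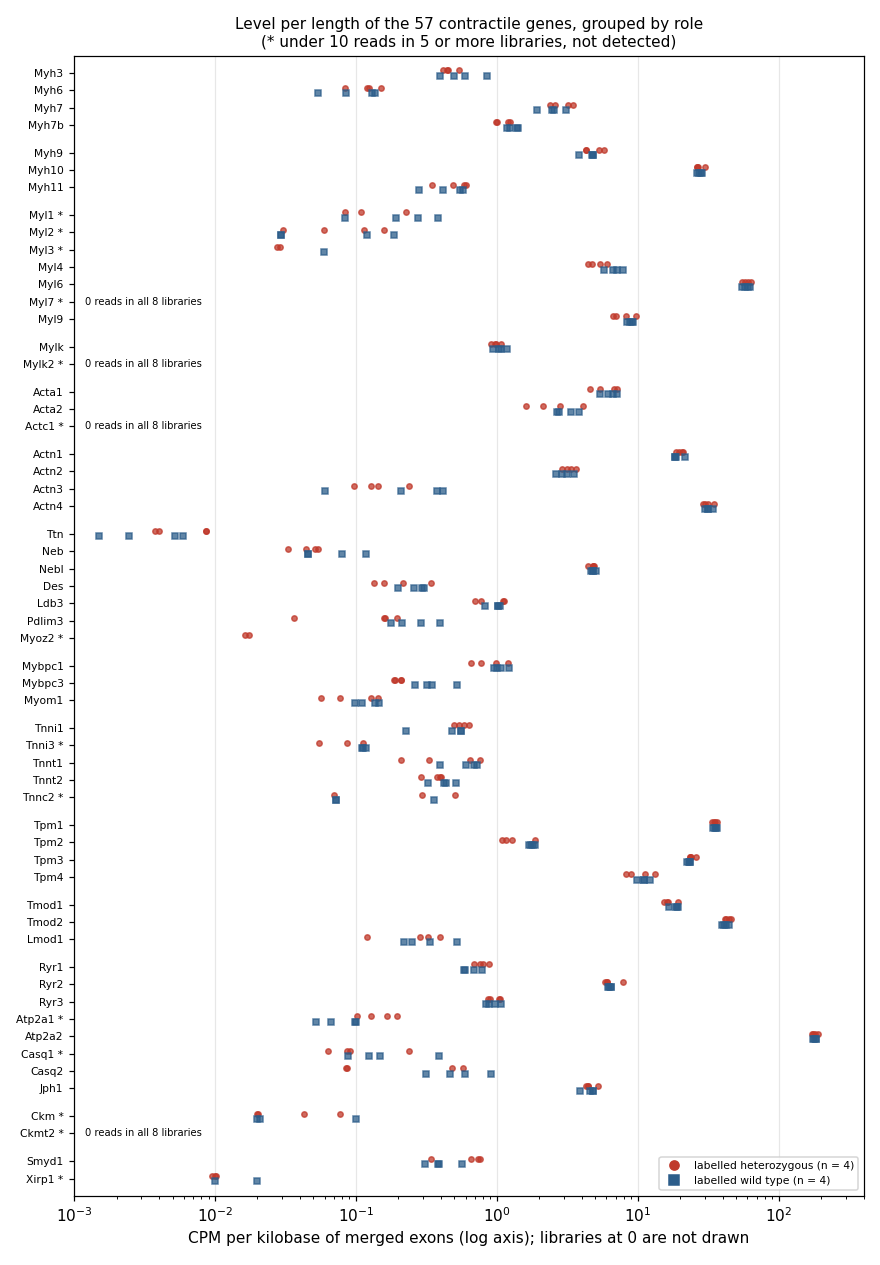
CPM per kilobase of merged exons (horizontal log axis) for the 57 contractile genes in blocks by role; each point is 1 library, red circles labelled heterozygous and blue squares labelled wild type, and libraries at 0 are not drawn. Atp2a2 lies highest, at about 180.3, the genotypes lie close together for the abundant genes, and the 4 genes without a read are marked.

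By library, in CPM, the 8 genes with the highest levels per length had closely similar values. Atp2a2 had 1162, 1099, 1073 and 1048 in heterozygous against 1114, 1120, 1089 and 1067 in wild type libraries. Myl6 had 194, 176, 184 and 204 against 183, 192, 174 and 199, and Tmod2 537, 517, 496 and 485 against 492, 519, 475 and 463. The genotypes overlapped for each of these genes. Tpm1 had 230.2, 236, 224 and 219 against 233, 237, 230.0 and 222 and Tpm3 144, 159, 146 and 143 against 141, 143, 144 and 135. Actn4 had 213, 192, 184 and 178 against 192, 209, 194 and 185, Actn1 116, 115, 104 and 108 against 102, 119, 101 and 104, and Myh10 314, 274, 281 and 274 against 277, 298, 294 and 287.

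Within each family, 1 or 2 isoforms made up most of the level per length. Myh10, the heavy chain of non-muscle myosin IIB, made up 73.8% ± 1.27 (SD, n = 8) of the 7 myosin heavy chains of the set and Myh9, that of myosin IIA, 12.7% ± 1.17, whereas Myh11, of smooth muscle, made up 1.29% ± 0.327. Of the sarcomeric heavy chains Myh7, known from heart and slow muscle, had the largest share, 7.28%, with a range of 5.17% to 8.93%. Its reads were 290 to 505 per library, and those of its neighbour Myh6 6 to 18. The sequences of Myh6 and Myh7 are close, and a gene on the other strand (Gm17428) overlaps Myh7, so these counts are uncertain.

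Ryr2, the cardiac and main brain ryanodine receptor, made up 79.2% (77.7% to 81.7%) of the 3 receptors, with Ryr3 at 11.8% ± 1.06 and Ryr1, the skeletal muscle form, at 8.95% ± 1.05. Atp2a2 made up 99.9% ± 0.0277 of the SERCA pair in the set. Among alpha-actinins, the non-muscle forms Actn4 and Actn1 made up 57.8% (56.2% to 59.6%) and 36.0% ± 1.27, and the striated muscle form Actn2, also a postsynaptic protein, 5.82% ± 0.751. Tpm1 made up 49.5% ± 1.08 of the tropomyosins and Tpm3 33.3% ± 1.28. Acta1, skeletal muscle actin, made up 67.9% ± 8.57 of the muscle actins and Acta2, smooth muscle actin, the rest. Actins are nearly identical in their coding sequence, so their shares depend on how reads were assigned.

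The genotype comparison asked which transcripts of the cortex differ with the Mef2c label. By edgeR's quasi-likelihood test, with sex as a covariate, none of the 43 tested contractile genes passed the 0.05 threshold after Benjamini-Hochberg adjustment over all 13879 genes tested, of which 37 passed (0.267%; 18 higher, 0.13%, and 19 lower, 0.137%). The 43 are the detected genes. At an unadjusted p under 0.05 there were 3 of 43, Myl4, Mybpc3 and Pdlim3, all with lower means in the libraries labelled heterozygous (6.98%, against 7.24% of all genes). The DESeq2 Wald test called 1 contractile gene, Myl4 (adjusted p 0.0455; 0.576% of all genes called), and limma-voom none (0.288% of all genes called). Among the 43, 27 fitted differences lay below 0 and their median was -0.07 on the log2 scale, against 50.5% of all genes and a median of -0.001. The groups did not overlap for 1 of 43 (2.33%), Mybpc3, against 4.55% of all genes.

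**Figure D3:**
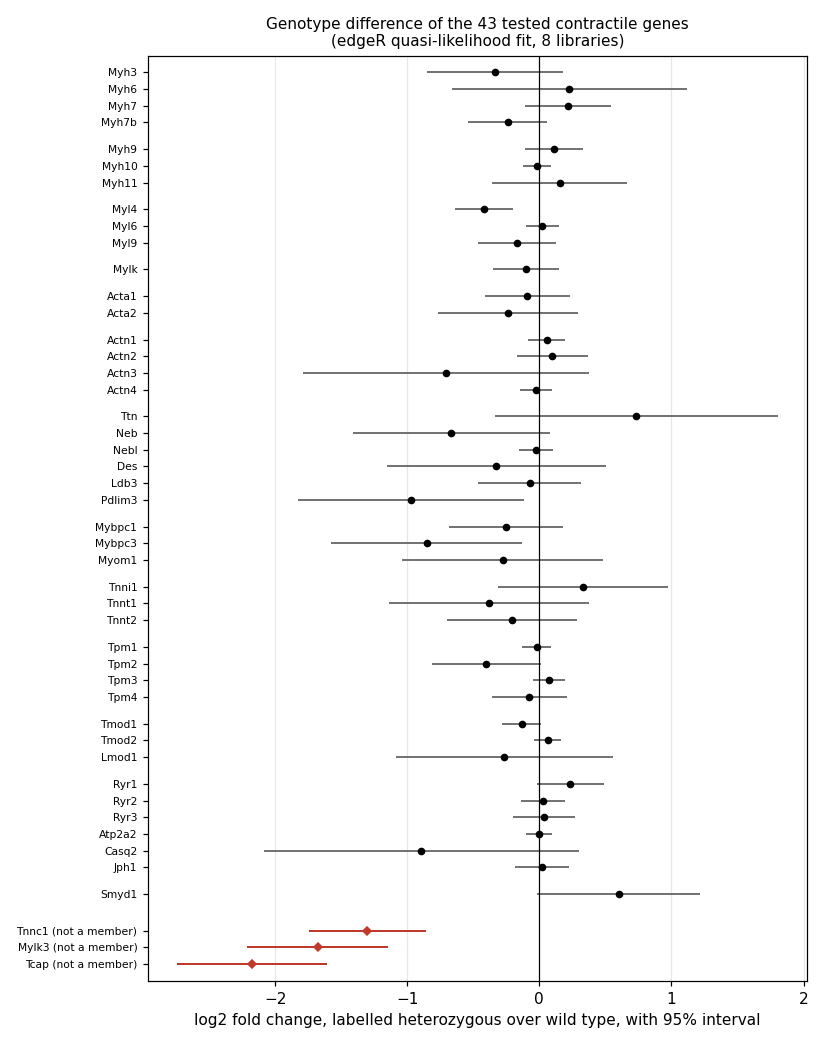
Log2 fold change of the 43 tested contractile genes, labelled heterozygous over wild type (points), with 95% intervals (bars) from the edgeR fit over 8 libraries, in blocks by role. The intervals of abundant genes such as Atp2a2 (-0.09 to 0.08) are narrow and those of scarce genes such as Casq2 (-2.08 to 0.29) wide; Tcap, Mylk3 and Tnnc1, in red at the bottom, are not members.

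The precision differed between genes with their counts. For 13 of the 43 the 95% interval of the difference lay within 1.25-fold in either direction, for 23 within 1.5-fold, and for 12 it reached 2-fold or more. The 14 widely expressed genes had log2 fold changes between -0.13 and 0.11, 7 above 0 and 7 below. For the 8 genes of smooth muscle or of muscle of both kinds the range was -0.97 (Pdlim3) to 0.15 (Myh11), with 7 below 0, and for the 21 tested genes known mainly from striated muscle -0.89 to 0.73, with 13 below 0. In bulk tissue, fewer cells of a kind and less RNA per cell cannot be told apart.

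Myl4 codes for the essential myosin light chain of atrial and embryonic muscle (chr11:104550663-104595753, plus strand). Its levels were 21.9, 24.9, 20.4 and 27.99 CPM in heterozygous against 26.7, 31.04, 32.9 and 36.2 CPM in wild type libraries. The wild type libraries were higher except that wild type replicate 1 lay below heterozygous replicate 4. The means were 23.8 ± 3.36 and 31.7 ± 4.002 CPM (SD, n = 4), or -0.42 ± 0.10 (SE) on the log2 scale, with a 95% interval of -0.63 to -0.21. The unadjusted p was 0.000499 and the adjusted p 0.0961 in edgeR's quasi-likelihood test, so Myl4 did not pass. Over 22 alternative settings the log2 fold change stayed between -0.59 and -0.25 and the adjusted p between 0.0117 and 0.912, under 0.05 in 5 of them. Those were the fits without wild type replicate 1 (log2 fold change -0.54, adjusted p 0.0117; 0.165% of all genes called), without a filter on low counts (0.0218; 0.471%), with the run of animal numbers as a term (0.0444; 0.519%), in the second run alone (0.0394; 0.502%) and by DESeq2. At an adjusted p under 0.1, Myl4 was the 1 contractile gene called (0.519% of all genes). The log2 fold change was -0.30 in the first run and -0.52 in the second. Each combination of sex and run holds 1 mouse of each genotype, and Myl4 was at the lower value in the heterozygous library in 4 of these 4 sets. Myl4 was singled out by its small p in these same libraries, so this count is no further support. The share over all genes is not given.

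None of the other light chains passed the test, and Myl1, Myl2, Myl3 and Myl7 were not detected. Myl6 had 189.8 ± 12.3 CPM in heterozygous and 187 ± 10.8 CPM (SD, n = 4) in wild type libraries, with a 95% interval of the log2 fold change of -0.10 to 0.14. Myl9, the regulatory light chain of smooth muscle, had 8.12, 11.4, 9.63 and 7.78 CPM against 9.78, 10.7, 10.7 and 10.3 CPM, overlapping groups with a log2 fold change of -0.17 ± 0.14 (SE) and an interval of -0.46 to 0.12. Its kinase Mylk had 11.1 ± 0.714 against 11.9 ± 1.101 CPM. The cardiac kinase gene Mylk3, not a member, had 1.95, 1.102, 1.43 and 1.34 against 4.13, 4.78, 3.84 and 5.94 CPM, a log2 fold change of -1.68 ± 0.25 (SE), while the ventricular light chain Myl2, its known substrate, stood at 1 to 6 reads in every library.

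Among the myosin heavy chains, Myh10 had 286 ± 18.9 CPM in heterozygous and 289 ± 9.36 CPM in wild type libraries, with an interval of the log2 fold change of -0.11 to 0.08. Myh7 had 29.9, 20.7, 22.4 and 27.4 CPM against 21.3, 22.00, 16.6 and 26.8 CPM, a log2 fold change of 0.22 ± 0.15 (SE) (unadjusted p 0.162 in edgeR's fit), with 1 wild type library below the heterozygous range and 3 inside it. Myh7b, an ancient sarcomeric myosin also described in neurons, went the other way, with 8.23, 6.61, 8.02 and 6.49 against 7.798, 8.23, 9.17 and 9.33 CPM and a log2 fold change of -0.24 ± 0.14 (SE). Wild type replicates 1 and 2 lay within the heterozygous range or at its top, and replicates 3 and 4 above it. Myh6 had a log2 fold change of 0.23. The embryonic form Myh3 had 2.79 ± 0.328 against 3.53 ± 1.16 CPM. None of the 7 passed the test.

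The accessory proteins of the thick filament had log2 fold changes below 0 in 3 of 3 genes, none called. Mybpc3, cardiac myosin-binding protein C, had 0.770, 0.870, 0.870 and 0.784 CPM in heterozygous and 1.34, 2.19, 1.43 and 1.09 CPM in wild type libraries, with every wild type value the higher. These levels rest on 13 to 15 reads per library against 18 to 38. Mybpc3 thus differed by -0.85 ± 0.35 (SE) on the log2 scale (unadjusted p 0.0218, adjusted p 0.541 by edgeR's quasi-likelihood test). Mybpc1, the slow skeletal form, had -0.25 and Myom1, which links thick filaments at the M-band, -0.28.

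**Figure D4:**
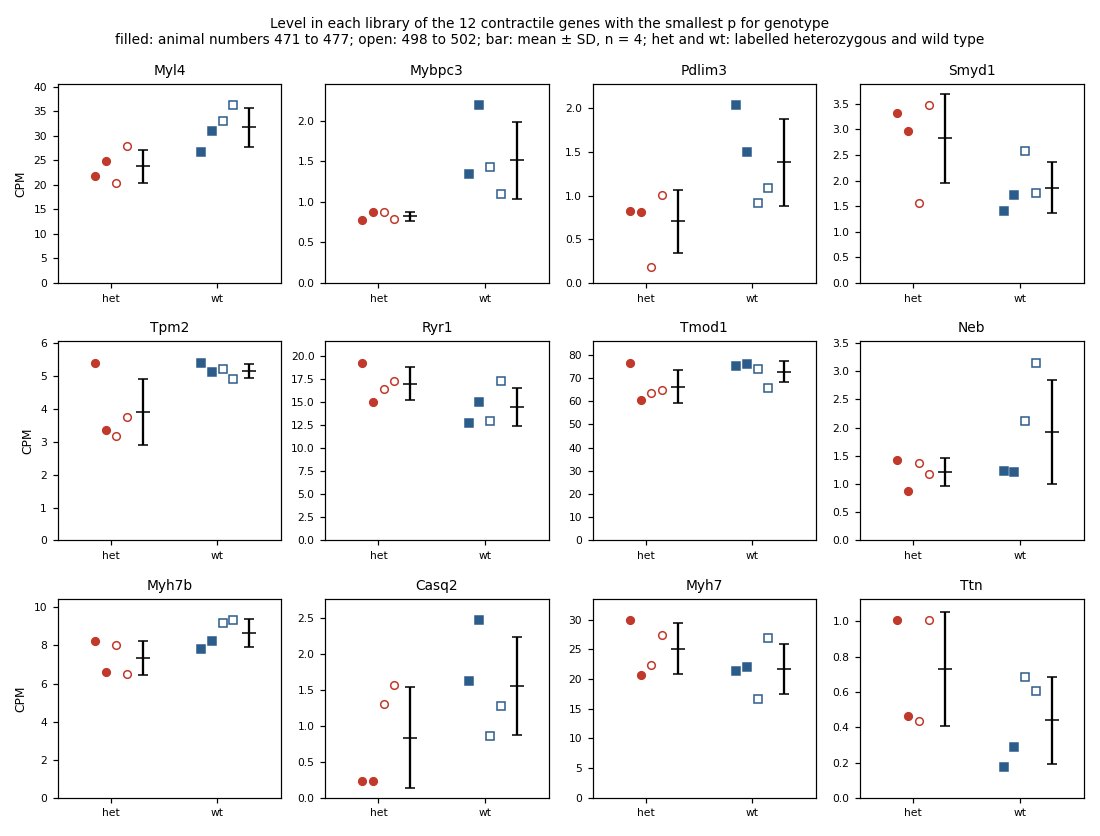
CPM in each library (vertical axes, from 0) for the 12 contractile genes with the smallest unadjusted p for genotype; red circles are labelled heterozygous and blue squares wild type, filled for the first run of animal numbers and open for the second, with the mean ± SD (n = 4) beside each group. Only the groups of Mybpc3 are fully apart; Myl4 overlaps between 26.7 and 28.0 CPM.

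Among the giant, Z-disc and intermediate filament proteins, 5 of 6 tested genes had a log2 fold change below 0, against 50.5% of all genes. None was called, and the alpha-actinins, given below, were counted apart. Pdlim3, a PDZ and LIM domain protein that binds alpha-actinin, had 14, 14, 3 and 18 reads in heterozygous and 35, 26, 16 and 18 reads in wild type libraries, overlapping groups with a log2 fold change of -0.97 ± 0.41 (SE) (unadjusted p 0.0265, adjusted p 0.57 in edgeR's quasi-likelihood test). Neb, the thin-filament ruler nebulin, had 24, 15, 22 and 21 against 21, 21, 37 and 52 reads. Its lower mean in heterozygous libraries (-0.67 on the log2 scale) came with 2 high wild type libraries, replicates 3 and 4. Its relative Nebl, which is expressed more widely, had 72.3 ± 3.03 against 73.5 ± 2.21 CPM with an interval of -0.15 to 0.10. Des had a log2 fold change of -0.33 and Ldb3, which ties alpha-actinin into the Z-disc, -0.07.

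Ttn was the 1 gene of this block above 0, at 0.73 ± 0.51 (SE), from 7 to 18 reads in heterozygous and 3 to 12 in wild type libraries, an interval of -0.33 to 1.80. Its Z-disc partner Tcap, telethonin, is not a member and had 1.24, 1.45, 1.802 and 2.58 against 5.41, 6.104, 9.91 and 10.6 CPM, a log2 fold change of -2.18 ± 0.27 (SE). The alpha-actinins had log2 fold changes of 0.05 for Actn1, 0.10 for Actn2, -0.71 for Actn3 and -0.03 for Actn4. Actn2, the alpha-actinin that is both sarcomeric and postsynaptic, had 12.9, 12.01, 13.8 and 10.97 CPM against 10.9, 10.02, 11.9 and 13.5 CPM, with interleaved groups.

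On the thin filament, the troponin partners of the slow and cardiac troponin C gene Tnnc1 did not pass the test. Tnnc1, not a member, had 7.88, 7.02, 3.604 and 4.87 against 12.8, 15.4, 12.4 and 17.1 CPM (-1.30 ± 0.20 (SE) on the log2 scale, adjusted p 0.0142 in edgeR's quasi-likelihood test). Tnni1, slow troponin I, had 1.95, 1.799, 2.11 and 2.295 against 0.815, 2.02, 1.72 and 2.000 CPM, a log2 fold change of 0.33 ± 0.31 (SE), with wild type replicate 1 the lowest. Tnnt1, slow troponin T, had 1.42, 0.464, 1.68 and 0.728 against 0.873, 1.32, 1.604 and 1.51 CPM (-0.38 ± 0.36 (SE)), and Tnnt2, cardiac troponin T, 2.903, 3.07, 2.24 and 3.13 against 2.502, 3.398, 3.95 and 3.27 CPM (-0.20 ± 0.23 (SE)). Cardiac troponin I and the fast troponin C gene Tnnc2 were not detected. The difference between Tnnc1 and its partners was not tested.

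Tropomyosins, which lie along the thin filament, had log2 fold changes of -0.02 for Tpm1, -0.40 for Tpm2, 0.07 for Tpm3 and -0.08 for Tpm4. Tpm2, of smooth and slow muscle, had 5.39, 3.36, 3.17 and 3.75 CPM in heterozygous and 5.41, 5.13, 5.21 and 4.91 CPM in wild type libraries. Heterozygous replicate 1 lay among the wild type libraries and the other 3 below them, and the unadjusted p was 0.0541 in edgeR's fit. Tmod1, which caps the pointed end of actin filaments, had 76.7, 60.5, 63.4 and 64.9 against 75.2, 76.1, 73.8 and 65.9 CPM. Heterozygous replicate 1 was the highest of all 8 libraries and the other 3 heterozygous libraries the lowest. The neuronal Tmod2 had 509 ± 22.9 against 487 ± 24.1 CPM and an interval of -0.03 to 0.16. The actin nucleator of smooth muscle, Lmod1, had 8 to 36 reads and a log2 fold change of -0.26.

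Of the calcium-handling genes, 6 of 8 were detected and none was called. Ryr1 had 19.3, 15.1, 16.5 and 17.3 CPM in heterozygous and 12.7, 15.03, 12.9 and 17.3 CPM in wild type libraries, a log2 fold change of 0.23 ± 0.12 (SE) (unadjusted p 0.063 in edgeR's fit). The groups overlapped through wild type replicate 4, and the other 3 wild type libraries lay below all heterozygous ones. Ryr2 had 226, 174, 176 and 169 against 187, 177, 179 and 185 CPM, where heterozygous replicate 1 stood alone above the rest. Ryr3 had 0.03, Jph1, a junctophilin that ties the calcium store to the surface membrane, 0.02, and Atp2a2 -0.003 with an interval of -0.09 to 0.08.

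Casq2, the calcium store protein of heart muscle, was the most uneven of these. It had 4, 4, 21 and 28 reads in heterozygous against 28, 43, 15 and 21 in wild type libraries. The low values were those of heterozygous replicates 1 and 2, both of the first run of animal numbers, while heterozygous replicates 3 and 4 lay within the wild type range. Over all libraries the log2 fold change was -0.89 ± 0.55 (SE) and the gene did not pass (adjusted p 0.842 in edgeR's quasi-likelihood test). Among the first run of numbers alone, with 2 libraries per genotype, it was -3.07 (adjusted p 0.000346 in the same test; 1.18% of all genes called), and among the second run 0.44 (adjusted p 0.877; 0.502% of all genes called). The difference between the runs, added after the data had been seen, was 3.53 ± 0.79 (SE) on the log2 scale, and did not pass (unadjusted p 0.000153, adjusted p 0.213 by edgeR's quasi-likelihood test).

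In that comparison of the genotype difference between runs, 0 of 43 contractile genes passed (0.00721% of all genes) and 4 had an unadjusted p under 0.05, Casq2, Myh9, Acta2 and Myom1 (4.09% of all genes). Myh9 had 74.8, 68.2, 55.5 and 55.9 CPM against 49.3, 62.5, 62.5 and 61.1 CPM, log2 fold changes of 0.36 in the first run and -0.15 in the second. In the first run alone it passed (adjusted p 0.0165 in edgeR's quasi-likelihood test), and over all libraries it did not (0.11, adjusted p 0.947). The fits of a single run have 1 residual degree of freedom and rest on the spread shared across genes.

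**Figure D5:**
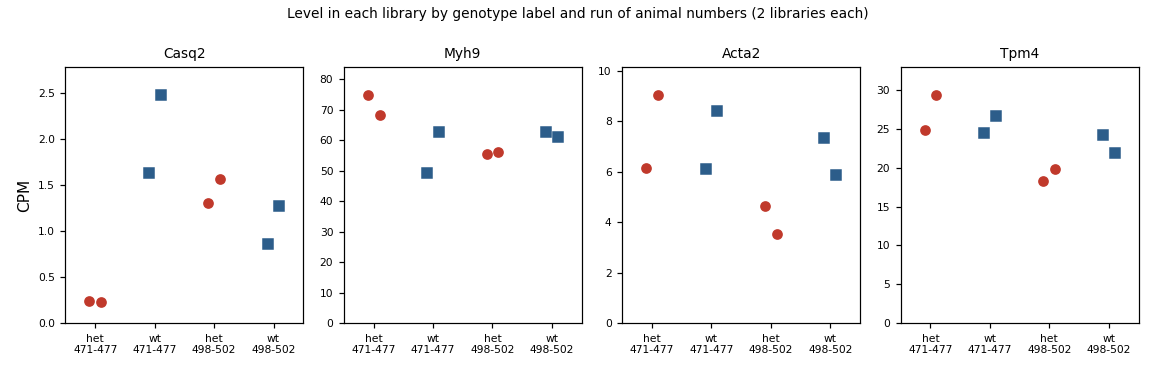
CPM in each library (vertical axes, from 0) of Casq2, Myh9, Acta2 and Tpm4, with 2 libraries for each genotype label and run of animal numbers. Both heterozygous libraries of the first run lie lowest for Casq2 and highest for Myh9, and for Acta2 and Tpm4 the heterozygous libraries of the second run lie lowest.

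In brain, smooth muscle genes are known mainly from the walls of arteries and arterioles. Acta2 had 6.16, 9.05, 4.66 and 3.53 CPM in heterozygous and 6.11, 8.41, 7.33 and 5.88 CPM in wild type libraries, with a log2 fold change of -0.24 ± 0.24 (SE). Heterozygous replicates 3 and 4 were the lowest and replicate 2 the highest of all 8. Acta1, the skeletal muscle actin, had a log2 fold change of -0.09. Myh11 ran from 35 to 79 reads with a log2 fold change of 0.15. Beside these, the 12 smooth muscle markers that are not members summed to between 41.4 and 46.5 CPM in heterozygous and between 43.4 and 45.5 CPM in wild type libraries. Of the 12, 8 were detected and tested, with 0 called and a median of -0.04. Cald1 was the most abundant of them, with means of 23.2 against 24.0 CPM, so the sums depend largely on this gene. The 9 pericyte markers summed to 223 to 261 against 239.6 to 277 CPM and the 10 endothelial markers to 223 to 317 against 231 to 303 CPM, with none called. Their part in the levels of the smooth muscle genes was not tested.

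Between the runs of animal numbers, a comparison added after the data had been seen, 0 of 43 contractile genes passed (0.382% of all genes) and 5 had an unadjusted p under 0.05 (10.2% of all genes). The second minus first run differences on the log2 scale were -0.33 for Tpm4, -0.50 for Acta2, -0.12 for Actn4, -0.10 for Tmod2 and 0.31 for Acta1. The endothelial markers summed to 285 to 317 CPM in the first run and 223 to 279.5 CPM in the second, and the pericyte markers to 247 to 277 and 223 to 243 CPM, without overlap. The smooth muscle markers outside the set summed to 43.5 to 46.5 and 41.4 to 45.6 CPM, with overlap. Their part in the differences of Tpm4 and Acta2 between runs was not tested.

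Smyd1, a methyltransferase needed for assembly of the sarcomere, had the smallest p of the genes with a higher mean in heterozygous libraries: 56, 51, 25 and 62 reads against 24, 30, 45 and 29, a log2 fold change of 0.60 ± 0.29 (SE) and an unadjusted p of 0.0535 in edgeR's fit. Heterozygous replicate 3 lay inside the wild type range. Its locus overlaps Krcc1 on the other strand. In all, 11 of the 57 genes overlap a gene with a row of its own on the other strand. Without a stated strand setting, reads from exons shared by such a pair cannot be told apart. Another 2, Tnni3 (with Dnaaf3) and Xirp1 (with Cx3cr1), overlap such a gene on the same strand. There no strand setting would separate reads from shared exons. These overlaps are of whole gene spans, and whether the exons overlap was not checked.

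Genes of the same machinery outside the set gave the wider picture. Of 51 further striated muscle genes, 18 were detected and 16 tested, and 5 were called, all lower: Tcap, Mylk3, Tnnc1, Cmya5 and Igfn1. Those 5 were put on the list with their calls in these data known, so the count is no independent result. The median of the 16 was -0.20. The most abundant by CPM were Mybph, a relative of myosin-binding protein C, at 58.0 against 55.6 CPM, and Igfn1, at 16.5 against 27.2 CPM. Cmya5 had 4.41 against 7.69 CPM. Of 32 actomyosin and calcium store genes of non-muscle cells, all 32 were tested and 0 called, with a median of 0.003 and 17 above 0. Ckb, the brain creatine kinase, had 1005 ± 48.3 against 1004 ± 31.0 CPM (SD, n = 4), where the muscle form Ckm had 0 to 5 reads.

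The comparison of males and females asked whether sex, the other labelled condition, moved these genes. No contractile gene of 43 passed (0.0288% of all genes), and 1 had an unadjusted p under 0.05 (2.92% of all genes). This was Tnnt1, with 1.51 ± 0.162 CPM in males and 0.895 ± 0.447 CPM in females (SD, n = 4), or 0.78 ± 0.36 (SE) on the log2 scale, male minus female (adjusted p 1.000 in edgeR's quasi-likelihood test). Wild type replicate 4, a female, lay within the male range. Tnnt1 is also on a list of thalamus markers, whose 7 genes summed to 145 to 158 CPM in heterozygous and 155 to 166 CPM in wild type libraries. Of that list Ramp3, a receptor-modifying protein gene, was called lower in heterozygous libraries (-0.71 ± 0.14 (SE) on the log2 scale, adjusted p 0.0190 in edgeR's quasi-likelihood test). The list did not move as a whole: 4 of its 7 genes lay above 0, with a median log2 fold change of 0.07. Among 7 tested hippocampus markers Wfs1 (0.44) and Fibcd1 (0.77) were called higher, and the list summed to 275 to 313 CPM in heterozygous and 249 to 258 CPM in wild type libraries, without overlap. The part of tissue from neighbouring regions in the levels of contractile genes was not tested. Myh10 and Tmod1 came next, with male minus female differences of 0.10 and 0.12 on the log2 scale.

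The genotype difference did not pass a test between the sexes for any contractile gene (0 of 43; 0 of all 13879 genes, 0.0%), and 2 had an unadjusted p under 0.05 (2.64% of all genes). Ryr2 had log2 fold changes of 0.17 in males and -0.12 in females, and Mybpc1 had 0.16 and -0.68. For Myl4 the values were -0.60 in males and -0.25 in females, with an unadjusted interaction p of 0.0939 in edgeR's fit. With 2 mice per sex and genotype, these differences rest on few libraries.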

How the data were processed

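RNA of whole cortex from 8 mice was sequenced after poly-A selection, per the labels' protocols. The values deposited by the authors are raw counts of reads, 1 row per gene symbol. STAR 2.5.2b, HTSeq and mm10 are named, per the submitters' processing notes. For annotation, strand setting and filters the sources used here name nothing. The 57 members and the lists were chosen with earlier results of these data known.

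Low counts were removed by filterByExpr, grouped by genotype (minimum count 10), libraries were scaled by TMM, and edgeR 4.0.16 (R 4.3.3) fitted a robust quasi-likelihood model with sex and genotype over 13879 genes. The limma (3.58.1) and DESeq2 (1.42.0) packages served as alternatives. Adjusted p-values are Benjamini-Hochberg over all genes tested. Standard errors were taken from the fold change and its F statistic. Lengths and coordinates are from GENCODE M21 (GRCm38), where all 57 members matched. CPM uses TMM-scaled totals.

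Named genes were the 12 members with the smallest p for genotype, the 8 with the highest level per length, 4 on either side of the detection threshold, 3 with the smallest p for sex, and, outside the members, Mef2c, Tcap, Mylk3, Tnnc1 and the called or most abundant genes of the lists. Of the marker lists, genes that were neither called nor beside a result of the members are not named, and 1 result is not reported here. Other members are named by role. On simulated counts (13792 genes after filtering, heterozygous against wild type) the fit recovered 42% of genes changed 1.25-fold, 84% at 1.5-fold, 92% at 2-fold and 98% at 3-fold. These were 21, 42, 46 and 49 of 50 genes, beside 23 false calls in all. The false calls were a larger share of all calls than the adjusted p threshold of 0.05 aims at. The genes called in the measured libraries may likewise hold more false calls than this threshold implies. The changed genes were drawn at random from all tested genes and no difference between runs was simulated. The rates are therefore not those of the scarce members. No pair of libraries of a genotype agreed within sampling noise (lowest chi-square per degree of freedom 4.14). The series' text speaks of separate mice. Intervals for counts of 0 cover counting error only.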

Additional observations from a re-analysis of the deposited data

Results flagged for a closer look

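In 3 of 86 groups of 4 libraries (43 detected contractile genes in both genotypes), 1 library stood apart from the other 3 by a gap larger than Dixon's 95% critical value for the gap over the group's range. Chance flags about 1 group in 20. Myh9 was at 49.3 CPM in wild type replicate 1, below the 61.1 to 62.5 CPM of the other wild type libraries. Ldb3, a Z-disc protein gene, was at 5.01 CPM in wild type replicate 2, below 6.18 to 6.40 CPM. Ryr2 was at 226 CPM in heterozygous replicate 1, above 169 to 176 CPM in the other heterozygous libraries.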

How the results depend on the processing

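With 43 members tested, 0 were called by genotype in edgeR's fit, and 1 was called without a filter on low counts, with the run of animal numbers as a term, in the second run of numbers alone, by the DESeq2 Wald test and at an adjusted p under 0.1 (Myl4 each time). In the first run alone 2 were called, Casq2 and Myh9. Leaving out 1 library gave 0 to 1, the 1 being Myl4 without wild type replicate 1. The cause was not tested. Of all genes, 37 were called, against 82 without a filter, 72 with the run as a term, 7 in males alone, 6 in females alone, 164 in the first and 70 in the second run alone, 80 by the DESeq2 Wald test and 72 at an adjusted p under 0.1. Leaving out 1 library gave 19 (without wild type replicate 2) to 80 (without heterozygous replicate 1). Casq2 changed sign in the second run alone (0.44).

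The genotype difference had opposite signs in the 2 runs for 17 of 43 members and in the 2 sexes for 17 of 43. The 43 are all tested members. In the fits of a single run, which filter low counts anew, Ttn had no value in the first run and Myh6 none in the second. The share over all genes was not computed, so these counts say nothing particular to the members. Away from 0 the members with opposite signs include Myom1 (-1.07 in the first run, 0.37 in the second), Myh9 (0.36 and -0.15) and Mybpc1 (0.16 in males, -0.68 in females). Of the 20 members followed under the alternatives, the other changes of sign were in genes with main values between -0.03 and 0.05. Ttn, among the 20, had no value with a stricter filter on low counts or in the first run alone. With RIN (RNA integrity) as a term Atp2a2 was at 0.0023 and Myl6 at -0.018. In males alone Atp2a2 was at 0.018, Myh10 at 0.0093 and Actn1 at -0.0013. In females alone Myl6 was at -0.0049 and Tpm1 at 0.00010. In the first run alone Atp2a2 was at 0.019, Myl6 at -0.019, Actn4 at 0.012 and Myh10 at 0.032. Leaving out 1 library gave -0.030 to 0.018 for Atp2a2, -0.018 to 0.068 for Myl6, -0.073 to 0.014 for Actn4 and -0.053 to 0.012 for Myh10. Detection took in 35 to 46 members over the other thresholds and samples tried, and no member was called by sex or by the interaction under any of 10 alternatives each. The labels give the mice no replicate numbers shared between genotypes, but sex and run together match 1 mouse of each genotype. A fit with a term for each matched pair was not run. The fit with sex and run as 2 separate terms is the one given above with the run as a term (Myl4 adjusted p 0.0444 in edgeR's quasi-likelihood test). Depth limits the scarce genes, and for 12 of 43 members the interval of the difference reached 2-fold.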
